A study of Mus musculus with 13 samples.

Results

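NUP210 peaks and NPC peaks on gene bodies were compared in control 4T1 cells, the mouse mammary tumor line used throughout the series. The members are all distinct listed peaks of both antibodies, 13204 for NUP210 and 11234 for NPC, and they come from 2 of the 13 samples of the series. Peaks were told apart by position, and no measured value was used to choose them. The series also holds histone mark ChIP-seq of control and Nup210 knockout cells, the IgG controls and RNA-seq of knockdown cells. Both libraries were made from 4T1 cells (strain BALB/cJ, from a spontaneous mammary primary tumor) that carried an sgRNA non-targeting control. One was precipitated with a rabbit antibody to NUP210 and read against rabbit IgG, and the other with the mouse antibody MAb414 to nuclear pore complex proteins (NPC) and read against normal mouse IgG. Each antibody had 1 library and no replicate, so every interval given below covers counting error only and no difference was tested over replicates. In the control H3K4me3 list of these cells, 7 of 7 mammary epithelial genes fixed as markers, Epcam and Krt8 among them, had a peak near their start, against 0 of 5 blood and endothelial genes.

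The nuclear pore complex is a ring of nucleoporins set into the nuclear envelope through which RNA and proteins pass. NUP210 is one of the few nucleoporins that span the membrane, and it joins pores in a manner that depends on the cell type. MAb414 binds phenylalanine-glycine repeats, which several other nucleoporins carry, among them NUP62 and NUP153, so the NPC library reads the pore through proteins other than NUP210. Some nucleoporins also bind chromatin, at the pore or in the nucleoplasm, which is why both antibodies can be used for ChIP.

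Each listed peak is a run of 1000 bp windows in which SICER, a caller for broad signals, counted more reads than its background model allows, and which lies on at least 1 gene body. Enrichment is defined here as ChIP reads over IgG reads, divided by the ratio of the library sizes (1.01 for NUP210 and 0.606 for NPC), so that a value of 1 means no more reads than IgG. NUP210 peaks covered 266 Mb with a median width of 14 kb (quartiles 9 and 24), and NPC peaks covered 240 Mb with a median width of 16 kb (quartiles 11 and 25). A median NUP210 peak held 345 ChIP reads and 294 rabbit IgG reads, and a median NPC peak held 350 ChIP reads and 526 mouse IgG reads.

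To show what the sites looked like, the promoters of 4 genes inside a peak are given (250 bases before to 50 after the gene start, RefSeq, GRCm38.p6, gene strand, with CG dinucleotides in capitals). Of the promoters lying whole in a peak of at least 20 IgG reads and considered for display, they had the highest enrichment in NUP210 peaks alone (Olfr469), in NPC peaks alone (Ryk and then Cga) and, by the lower of their enrichments, in both (Tas2r103).
Olfr469, chr7:107823418-107823717, minus strand: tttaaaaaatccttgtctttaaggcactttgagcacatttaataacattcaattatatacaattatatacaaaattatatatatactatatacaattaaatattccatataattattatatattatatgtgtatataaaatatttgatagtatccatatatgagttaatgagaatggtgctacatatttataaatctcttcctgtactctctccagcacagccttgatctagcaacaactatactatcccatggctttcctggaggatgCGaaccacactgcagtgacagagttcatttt
Ryk, chr9:102834670-102834969, plus strand: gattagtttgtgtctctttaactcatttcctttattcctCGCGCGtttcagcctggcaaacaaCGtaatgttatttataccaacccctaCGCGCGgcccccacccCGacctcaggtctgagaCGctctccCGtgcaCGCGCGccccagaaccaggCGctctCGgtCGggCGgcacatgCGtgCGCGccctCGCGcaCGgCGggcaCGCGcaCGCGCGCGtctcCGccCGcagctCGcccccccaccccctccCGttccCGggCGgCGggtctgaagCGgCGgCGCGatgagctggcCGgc
Cga, chr4:34893529-34893828, plus strand: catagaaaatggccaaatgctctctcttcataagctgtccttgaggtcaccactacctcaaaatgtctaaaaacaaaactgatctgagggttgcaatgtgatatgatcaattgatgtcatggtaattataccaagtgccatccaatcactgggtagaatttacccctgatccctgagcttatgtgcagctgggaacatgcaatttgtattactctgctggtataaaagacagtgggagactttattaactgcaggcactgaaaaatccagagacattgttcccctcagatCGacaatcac
Tas2r103, chr6:133037052-133037351, minus strand: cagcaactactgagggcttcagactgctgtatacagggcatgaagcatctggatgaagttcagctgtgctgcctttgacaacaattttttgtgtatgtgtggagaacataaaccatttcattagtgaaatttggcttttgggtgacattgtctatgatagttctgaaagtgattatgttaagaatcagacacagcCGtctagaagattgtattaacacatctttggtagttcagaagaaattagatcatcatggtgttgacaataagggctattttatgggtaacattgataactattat
Olfr469, an olfactory receptor gene, lay whole in a NUP210 peak of 147 ChIP and 36 IgG reads (enrichment 4.04, 95% interval 2.79 to 5.99), and its promoter had 28.3% GC and 1 CG. Ryk, a receptor for WNT ligands, had an NPC peak over its start with 151 ChIP and 128 IgG reads (enrichment 1.95, 1.53 to 2.48), and its promoter had 67.7% GC and 42 CG. The start of Cga, which encodes the alpha subunit shared by the pituitary glycoprotein hormones, lay in an NPC peak of enrichment 1.76 (1.44 to 2.16) with 41.3% GC and 1 CG. Tas2r103, a bitter taste receptor gene, lay in a NUP210 peak of enrichment 1.46 (1.28 to 1.68) and an NPC peak of 1.51 (1.29 to 1.78). The promoters that NPC peaks alone covered thus differed widely in base composition.

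Across the 19453 RefSeq genes with a promoter sequence (80.2% of 24266), the median promoter had 56.0% GC and 12 CG dinucleotides. The 1363 promoters inside peaks of both lists had a median of 43.0% GC and 3 CG, and 52.8% of them held at most 3, compared with 24.6% of all promoters. Without the olfactory (Olfr) and vomeronasal (Vmn) receptor genes, the median was 52.8% GC for 910 promoters in both, 56.0% for 707 in NUP210 peaks alone, 59.0% for 633 in NPC peaks alone and 57.0% for 15937 in neither. The low GC of the promoters in both lists was therefore in large part carried by receptor genes, with a smaller difference left without them.

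Both antibodies gave low enrichment, and NUP210 reached higher values than NPC. The median enrichment was 1.19 for NUP210 peaks (quartiles 1.06 and 1.36) and 1.103 for NPC peaks (quartiles 1.01 and 1.23). Of NUP210 peaks, 2004 (15.2%) lay below scaled IgG and 424 (3.21%) reached an enrichment of 2, a level called strong here. Of NPC peaks, 2446 (21.8%) lay below IgG and 76 (0.677%) were strong. The FDR that SICER gave was at most 0.05 for 9111 NUP210 peaks (69.0%) and 5807 NPC peaks (51.7%).

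Strong peaks were narrow, with median widths of 4 kb for NUP210 and 3 kb for NPC, and they held both more ChIP reads and fewer IgG reads per kb than weak ones. From the class below 1 to the class of 2 and more, the median ChIP density of NUP210 peaks went from 23.9 to 35.7 reads per kb, while rabbit IgG went from 25.7 to 14. For NPC the ChIP density went from 22.9 to 35.2 reads per kb and mouse IgG from 40.3 to 25. Enrichment is the scaled ratio of these densities, so a peak could enter a higher class through more ChIP reads or through fewer IgG reads, and strong peaks differed from weak ones in both.

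Among the strongest NUP210 peaks with at least 20 IgG reads was the one in Cpne4, a copine gene, with 122 ChIP and 24 IgG reads (5.03, 3.23 to 8.15). The peak in Skap1, an adaptor gene of immune cells, had 96 and 21 reads (4.52, 2.80 to 7.64). The highest NPC peak was in Cacna1d, a calcium channel gene, with 65 ChIP and 27 IgG reads (3.97, 2.50 to 6.47), followed by Fgf12, a fibroblast growth factor gene, with 125 and 55 (3.75, 2.71 to 5.25). None of these 4 peaks shared a base with the other list.

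The lists shared 172 Mb, which was 64.9% of the length of NUP210 peaks and 71.9% of the length of NPC peaks. By at least 1 bp, 9264 of 13204 NUP210 peaks (70.2%, 69.4 to 70.9) overlapped an NPC peak, and 9305 of 11234 NPC peaks (82.8%, 82.1 to 83.5) overlapped a NUP210 peak. When both lists were limited to an FDR of 0.05 or less, these shares were 35.9% and 54.8%. Overlap was less frequent at higher enrichment. It fell from 76.8% of NUP210 peaks below an enrichment of 1 to 28.1% (24.0 to 32.5) of those at 2 and more. For NPC it fell from 93.4% to 39.5% (29.2 to 50.7).

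Wide peaks have more room to overlap, and the part of width in this decline was not tested. Among peaks of 5 to 10 kb, overlap went from 65.4% of 384 to 29.0% of 155 NUP210 peaks between the same classes. For NPC it went from 91.1% of 247 to 41.7% of 24 peaks. The median width of these peaks also went from 8 to 6 kb in both lists. Not 1 of the 424 strong NUP210 peaks overlapped a strong NPC peak. By 3 counts over the number of peaks, a share of up to 0.708% of NUP210 peaks and 3.95% of NPC peaks is allowed. The NPC peaks that met 119 strong NUP210 peaks had a median NPC enrichment of 1.13 (range 0.885 to 1.94), and the NUP210 peaks that met 30 strong NPC peaks had a median NUP210 enrichment of 1.28 (range 0.883 to 1.81). The strong peaks of the lists thus did not overlap, but few such overlaps could be looked for. Strong NUP210 peaks met only 120 of all 11234 NPC peaks, and strong NPC peaks only 30 of all 13204 NUP210 peaks. At such low shares, few or none of the strong peaks would be shared in any case. Whether strong peaks avoided each other was not tested.

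**Figure D1:**
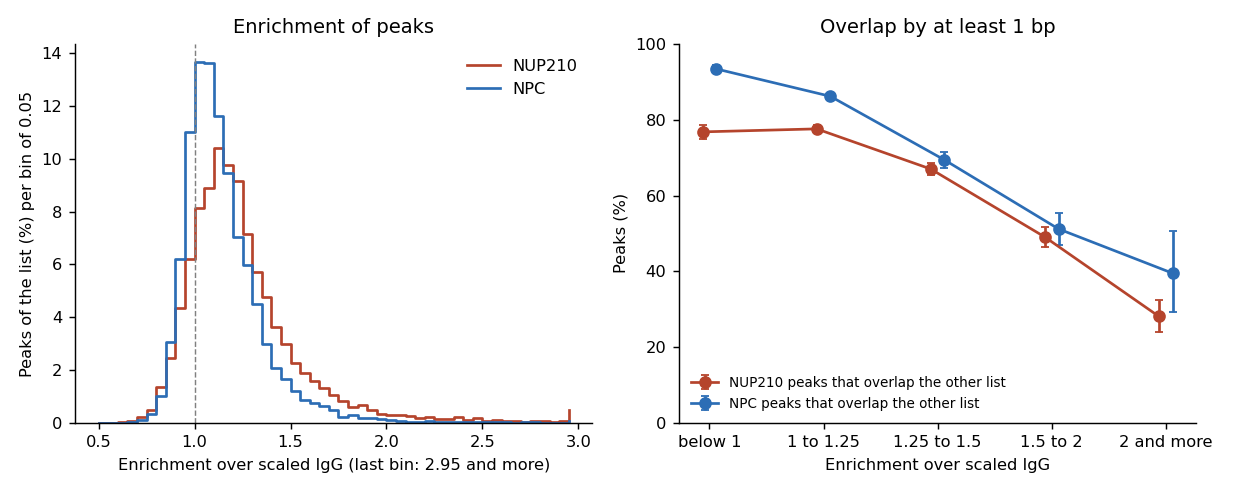
Left, percent of peaks of each list per bin of 0.05 in enrichment over scaled IgG, with a dashed line at 1; right, percent of peaks in each enrichment class that overlap a peak of the other list, with 95% Wilson intervals. NPC peaks pile up closer to 1 than NUP210 peaks, and the overlap falls to 28.1% of NUP210 and 39.5% of NPC peaks at an enrichment of 2 and more.

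Strong peaks of both lists did fall in the same gene in 18 cases, out of 398 genes with a strong NUP210 peak and 74 with a strong NPC peak. These 18 genes were long, with a median of 523 kb (range 135 to 1433), and the nearest strong peaks of the lists lay 5 to 699 kb apart with a median of 112 kb. In Ctnna2, an alpha-catenin gene chosen for display after its values were seen, the NUP210 peak reached 2.14 and the higher of 2 NPC peaks 3.38, and the nearest strong peaks of the lists were 699 kb apart. In Gpc5, a glypican gene chosen in the same way, the highest values were 2.93 and 3.004 and the nearest distance was 386 kb. The genes with a strong peak of either list were themselves long, with medians of 161 and 196 kb.

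Strong peaks seldom reached the ends of genes, and this went with their width. Of the pairs of a strong NUP210 peak and a gene, 4.69% covered the gene start and 7.37% the gene end, against 20.04% and 23.7% for all NUP210 pairs. Among NUP210 peaks under 5 kb alone, the gene start was covered in 3.05% of strong pairs and 2.88% of all pairs. Strong NPC peaks covered the start in 0 of 78 pairs, which allows a share of up to 3.85%, and all NPC peaks under 5 kb in 3.29% of pairs.

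For 307 peaks the start and end were the same in both lists, so the same bases could be read with all 4 libraries. The median density there was 29.6 reads per kb for NUP210, 25.4 for rabbit IgG, 26.0 for NPC and 39.9 for mouse IgG. NUP210 enrichment was the higher in 194 of 307 (63.2%), with medians of 1.15 and 1.08 and a median log2 ratio of NUP210 to NPC of 0.09. The interval of the ratio lay above 0 in 98 peaks and below 0 in 32. An enrichment of 1.5 was reached in 29 peaks for NUP210, 9 for NPC and 1 for both.

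Before division by IgG, the antibodies ranked these 307 peaks much alike, and after it they did not. Spearman's rho was 0.75 between NUP210 and NPC reads per kb, 0.74 between the rabbit and mouse IgG reads per kb, 0.73 between NUP210 and rabbit IgG and 0.75 between NPC and mouse IgG. Between the enrichments it was 0.04. These values describe 307 regions read with the same 4 libraries, and the part of the IgG density in them was not tested.

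NUP210 peaks met 6293 genes and NPC peaks 5717 (a gene is met when a listed peak lies on its body). Both lists met 4899 genes, 77.8% of the NUP210 genes and 85.7% of the NPC genes, and in 4680 of these the peaks shared bases. NUP210 alone met 1394 genes and NPC alone 818. With peaks limited to an FDR of 0.05 or less, both lists met 2635 genes, NUP210 alone 2391 and NPC alone 1091. Genes met by both were longer, with a median of 44.6 kb against 20.3 kb for NUP210 alone and 21.0 kb for NPC alone, and held more peaks, on average 2.64 and 2.35 against 1.16 and 1.08. Under the same FDR limit these lengths were 77.0, 23.6 and 28.7 kb. Genes met by 1 list had the higher median enrichment, 1.26 against 1.16 for NUP210 and 1.20 against 1.08 for NPC.

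Against the RefSeq annotation of GRCm38.p6, 6048 of 24266 genes (24.9%) were met by NUP210 and 5518 (22.7%) by NPC. These shares are the background for every count of genes below except that of microRNA genes. Both shares rose with gene length. Of genes of 5 to 10 kb, 9.72% were met by NUP210 and 8.78% by NPC, and of the 230 genes of 500 kb and more, 200 (87.0%, 82.0 to 90.7) and 190 (82.6%, 77.2 to 87.0). A longer gene offers more room for a peak, and the part of this in the rise was not tested. The share of gene body length that was covered went from 7.65% to 29.0% for NUP210 and from 6.99% to 23.5% for NPC between these classes. It was nearly level over the 3 classes from 50 to 500 kb, at 21.8%, 21.4% and 22.8% for NUP210 and 20.7%, 20.4% and 20.5% for NPC. Over the same classes the share of genes met went from 43.8% to 67.0% for NUP210 and from 41.9% to 62.4% for NPC.

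The shortest genes broke this order. Of 5584 genes under 5 kb, NUP210 met 17.5% and NPC 14.3%, more than in the next class. Without Olfr and Vmn genes, the shares under 5 kb were 6.999% and 5.96% of 4329 genes, below those of the next class.

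**Figure D2:**
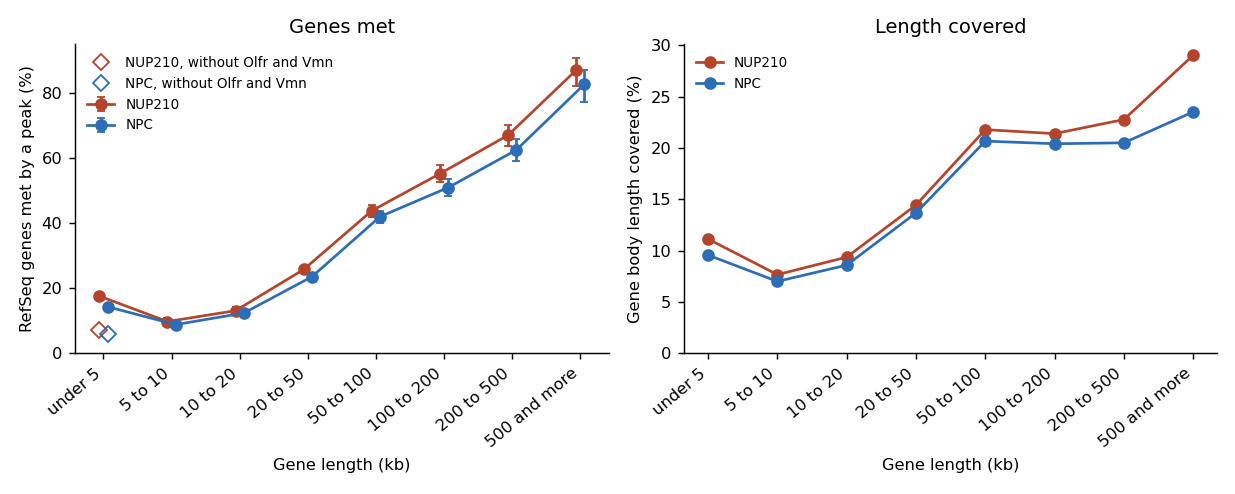
Left, percent of RefSeq genes met by a NUP210 or NPC peak by gene length in kb, with 95% Wilson intervals, and open diamonds for genes under 5 kb without the Olfr and Vmn families; right, percent of the summed gene body length covered. Both lists rise from 9.72% and 8.78% of genes at 5 to 10 kb to 87.0% and 82.6% at 500 kb and more.

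The 3 longest genes met by both lists held many peaks of each, and more of NUP210. Ptprd, a receptor tyrosine phosphatase gene of 2271 kb, held 50 NUP210 peaks over 30.3% of its body and 21 NPC peaks over 15.5%. Cntnap2, a neurexin family gene of 2241 kb, held 50 NUP210 and 36 NPC peaks over 38.3% and 25.3%. Dmd, the X-linked dystrophin gene of 2256 kb, held 26 NUP210 peaks over 14.6% and 3 NPC peaks over 1.02%. All 3 were covered more by NUP210, and Dmd had the largest ratio.

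Among genes met by NUP210 alone, the longest were Auts2, with 1 peak of enrichment 1.42 (1.14 to 1.78), and Asic2, an ion channel gene, with 1 peak of 1.08 (0.880 to 1.33). Astn2, an astrotactin gene of 1024 kb, held 10 NUP210 peaks over 10.6% of its body with an enrichment of 1.44 (1.35 to 1.53) and no NPC peak. The longest met by NPC alone were Frmpd4 with 1 peak of 1.68 (1.38 to 2.05), the nuclear receptor gene Rora with 1 of 1.34 (1.14 to 1.58) and Kalrn, a guanine exchange factor gene, with 2 at 1.36 (1.19 to 1.56). Apart from Astn2, these long genes owed their category to 1 or 2 peaks.

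Gene families stood far apart in how often they were met. Olfr genes, which encode the odorant receptors and lie in clusters, were met most: 676 of 1108 (61.0%, 58.1 to 63.8) by NUP210 and 547 (49.4%, 46.4 to 52.3) by NPC. All RefSeq genes weighted to the lengths of Olfr genes gave 17.2% and 14.1%, and those outside the Olfr and Vmn families 7.33% and 6.30%. Vmn genes, the pheromone receptors, were met in 114 (32.1%) and 86 (24.2%) of 355 cases. A peak in an Olfr cluster met up to 12 genes for NUP210 and 13 for NPC. The intervals of these shares count each gene apart and do not allow for this. Reads of near-identical copies can be assigned to the wrong one, so single genes of the family are uncertain.

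The Olfr peaks were many but not strong. The 472 NUP210 peaks on Olfr genes had a median enrichment of 1.22 against 1.19 for the other peaks, with 5 strong peaks, and 79.9% had an FDR of at most 0.05 against 68.6%. The 403 NPC peaks on Olfr genes had a median of 1.093 against 1.104, with 0 strong peaks, and 48.1% had an FDR of at most 0.05 against 51.8%. At that FDR, 566 Olfr genes were met by NUP210 and 260 by NPC.

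The share of Olfr genes met depended on the chromosome. On chromosome 9, NUP210 met 126 of 130 and NPC 122, and on chromosome 2 they met 246 and 194 of 287. On chromosome 7, which holds 238 Olfr genes, NUP210 met 71 and NPC 31, and on chromosome 4 each met 1 of 24. Rabbit IgG density was read over all NUP210 peaks of a chromosome, not over those on Olfr genes alone. It was 27.1 reads per kb on chromosome 9, 22.9 on chromosome 2, 19.98 on chromosome 7 and 19.3 on chromosome 4. On chromosome 11, with 24.0 reads per kb, NUP210 met 18 of 83 Olfr genes (21.7%), and on chromosome 6, with 21.3, it met 17 of 28 (60.7%). The part of the IgG density in these differences was not tested.

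At the other end, 0 of 43 Hox genes and 0 of 67 histone cluster (Hist) genes were met by either antibody. By 3 counts over the number of genes, shares of up to 6.98% and 4.48% are allowed. The upper Wilson limits are 8.20% and 5.42%. Hox genes specify position along the body axis, and both families lie in compact clusters. The limits count each gene apart and do not allow for this. Genes of the same lengths outside Olfr and Vmn gave 9.35% and 8.34% for Hox, and 7.38% and 6.34% for Hist, so the distance from those limits was small. Of 53 keratin (Krt) genes, 1 was met by NUP210 and 0 by NPC. Ribosomal protein genes (Rpl and Rps) were met in 9 of 98 cases (9.18%) by each. That is near the 10.5% for NUP210 and 9.31% for NPC of genes of the same lengths outside Olfr and Vmn.

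The other families were met neither as often as Olfr genes nor as seldom as Hox, Hist and Krt genes. Zinc finger (Zfp) genes were met in 100 (25.1%, 21.1 to 29.5) and 84 (21.1%, 17.3 to 25.3) of 399. Genes of the same lengths outside Olfr and Vmn gave 20.5% and 19.1%. Potassium channels (Kcn) were met in 27 and 24 of 98. Solute carrier (Slc) genes were met in 82 (21.6%, 17.8 to 26.1) and 79 (20.8%, 17.1 to 25.2) of 379 cases, against 26.7% and 24.9% at the same lengths. Integrins (Itg) were met in 10 of 31 cases by both, and collagens (Col) in 17 and 18 of 44. Adam protease genes were met in 25 and 23 of 59 cases, cytochrome P450 (Cyp) genes in 25 and 16 of 100, and glutamate receptor genes in 12 and 10 of 25. Protocadherins (Pcdh) were met in 26 and 23 of 69, and since peaks in the Pcdha cluster on chromosome 18 met 13 or 14 overlapping genes at once, these are few events.

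**Figure D3:**
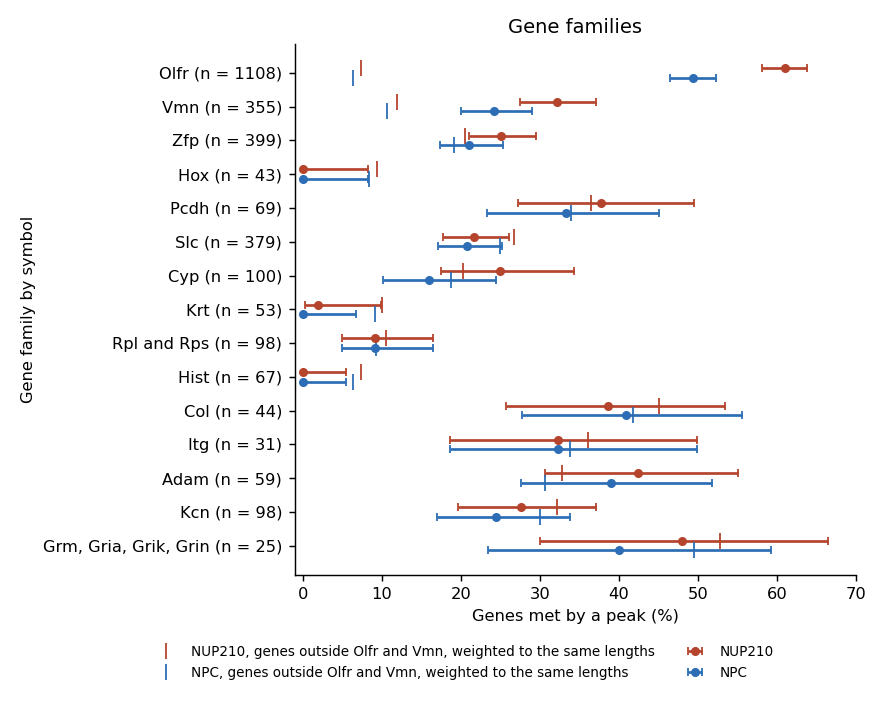
Percent of the genes of each family (by symbol, with the number of genes) met by a NUP210 or NPC peak, with 95% Wilson intervals, and as short vertical lines the percent of RefSeq genes outside Olfr and Vmn when weighted to the family's gene lengths. Olfr genes lie far above their lines, at 61.0% and 49.4%, and Hox and Hist genes lie at 0.

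By chromosome, both lists covered nearly the same order of gene bodies. Coverage was highest on chromosomes 15 (33.9% of gene body length for NUP210 and 35.3% for NPC), 16 (32.5% and 32.4%) and 19 (31.9% and 33.5%). It was lowest on chromosome 7 (6.55% and 4.42%) and the X chromosome (8.14% and 3.32%). Spearman's rho between the lists was 0.98 over 20 chromosomes. NPC covered more than NUP210 on 3 chromosomes (8, 15 and 19).

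The X chromosome differed most between the antibodies, with 2.45 times the coverage by NUP210. NUP210 met 106 of its 997 genes (10.6%, 8.87 to 12.7) and NPC 55 (5.52%, 4.26 to 7.11), and only 4 of these genes were met by NPC alone. Its 288 NUP210 peaks had the highest median enrichment of any chromosome, 1.37, and its 126 NPC peaks also had the highest for NPC, 1.19. It held 31 of the 424 strong NUP210 peaks (7.31%) and 3 of the 76 strong NPC peaks (3.95%). Its 288 and 126 peaks were of 13204 and 11234 in all, of which 3.21% and 0.677% were strong.

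The IgG reads moved with all of these values. Density of rabbit IgG in NUP210 peaks ran from 17.996 reads per kb on the X chromosome to 28.8 on chromosome 15, and it ranked the chromosomes as mouse IgG in NPC peaks did (rho 0.99). Over the 20 chromosomes, rho between covered share and IgG density was 0.73 for NUP210 and 0.81 for NPC, between median enrichment and IgG density it was -0.93 and -0.94, and between the ratio of coverage and rabbit IgG density it was -0.97. IgG reads were counted inside peaks alone and are part of the enrichment itself, and the chromosomes share the same 4 libraries. The part of the IgG density in these orders cannot be told apart from that of binding.

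**Figure D4:**
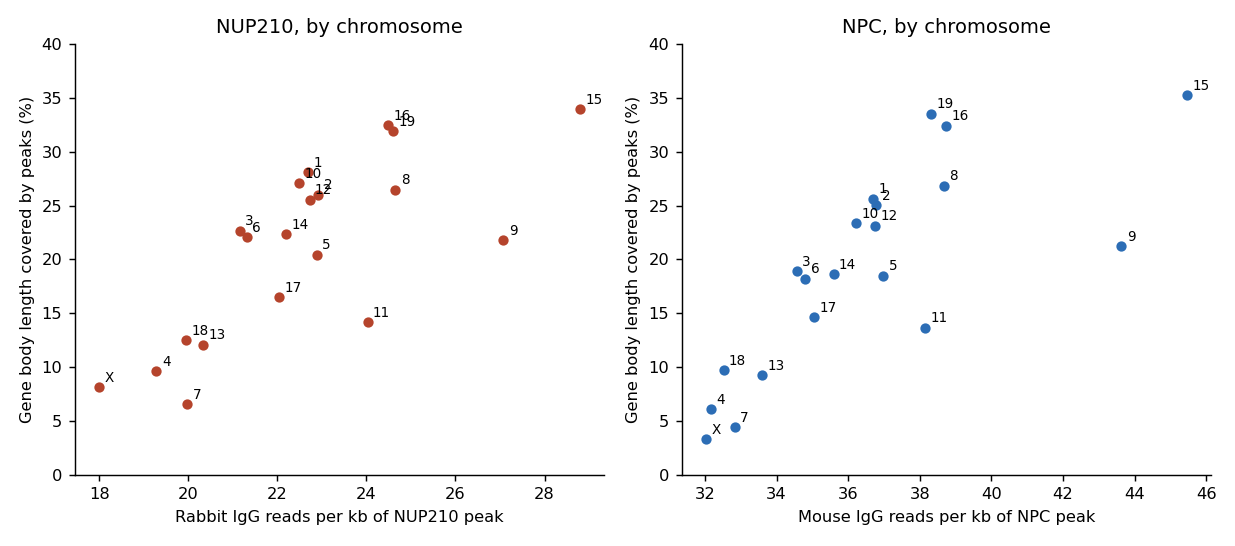
Percent of gene body length covered by peaks on each chromosome against the IgG reads per kb inside those peaks, for NUP210 with rabbit IgG (left) and NPC with mouse IgG (right); each point is 1 chromosome. Chromosome 15 lies highest on both axes in both panels, and the X chromosome has the lowest IgG density.

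For the 4896 genes met by both lists with at least 20 IgG reads in each, NUP210 enrichment was the higher in 3264 (66.7%). The median log2 ratio of NUP210 to NPC was 0.09 (quartiles -0.06 and 0.22). It was 1 or more in 18 genes and -1 or less in 6. Spearman's rho between the enrichments of these genes was 0.17, over genes that share libraries and peaks.

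The 5 genes at the NUP210 end had a NUP210 enrichment of 2.24 or more and an NPC enrichment of 1.28 or less. Slc22a21, a carnitine transporter gene, had 93 NUP210 and 21 rabbit IgG reads (4.38, 2.71 to 7.41) but 203 NPC and 315 mouse IgG reads (1.06, 0.887 to 1.27), a log2 ratio of 2.04. Tyrp1, a melanin synthesis gene, had a NUP210 enrichment of 3.54 (2.36 to 5.46) and an NPC enrichment of 1.098 (0.971 to 1.24). Satb1, a gene for a chromatin organizer, had 3.18 (2.23 to 4.61) and 1.28 (1.13 to 1.44). Rcbtb2 and Oxct1, the latter an enzyme of ketone body use, had log2 ratios of 1.41 and 1.28.

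At the NPC end, 4930545L23Rik, a noncoding RNA gene, had 65 NPC and 29 mouse IgG reads (3.70, 2.35 to 5.94) in a peak that also lies on Plcb1, and a NUP210 enrichment of 1.11 (0.935 to 1.33). Spata16, a gene of sperm formation, had an NPC enrichment of 3.03 (2.12 to 4.39) and a NUP210 enrichment of 1.31 (1.17 to 1.46). The NPC peaks of these genes shared 0 bases with a NUP210 peak, so their ratios compare different parts of the gene. Gm13178, 4930519H02Rik and Mpv17l had log2 ratios of -1.37, -1.37 and -1.07. In all 10 genes of both ends, the peaks of the antibody with the higher enrichment covered less of the gene than those of the other.

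**Figure D5:**
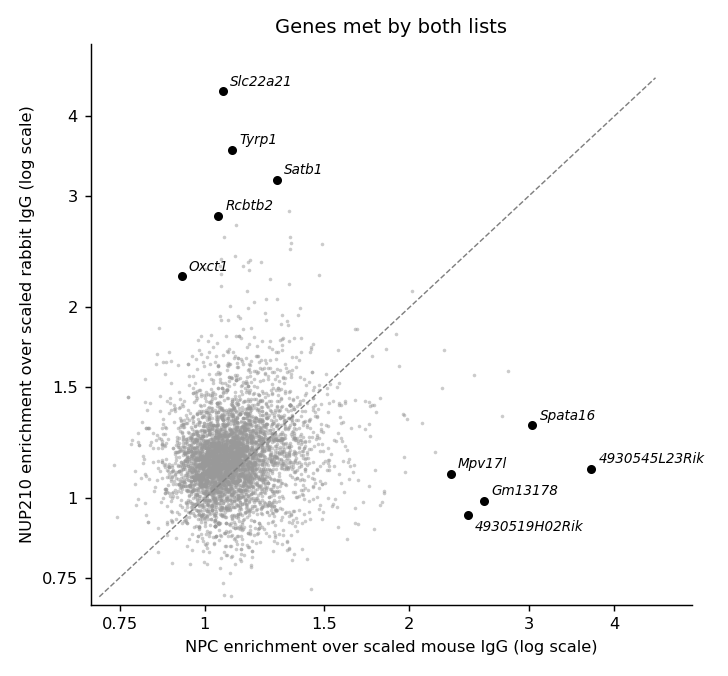
Enrichment of NUP210 (vertical) against NPC (horizontal) for the 4896 genes met by both lists with at least 20 IgG reads in each, both on log scales, with a dashed line of equal values. The 5 genes with the highest and the 5 with the lowest ratio are named, and each of them lies high on 1 axis and at 1.31 or less on the other.

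Of genes met by 1 list, Olfr248 (101 NUP210 and 23 IgG reads, 4.34, 2.74 to 7.16) and the X-linked ubiquitin ligase gene Mid2 (123 and 29, 4.19, 2.78 to 6.52) had the highest NUP210 enrichments. Next came 9530051G07Rik at 4.11, Olfr469 at 4.04 and the zinc finger gene Zik1 at 3.68. The peak of Olfr248 covered only 5.45% of the gene and lay mostly past its end. For NPC, Pcbp2, an RNA-binding protein gene, had 63 ChIP and 34 IgG reads (3.06, 1.98 to 4.79) and no NUP210 peak. Tet1, which encodes a DNA demethylase, and the X-linked meiosis gene Tex11 were met by both lists, with NPC enrichments of 2.79 and 2.74 and NUP210 enrichments of 1.59 and 1.35. The NUP210 value of Tex11 sums 2 peaks, the higher of which reached 3.10, above its NPC peak.

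Genes of the pore itself were met in 13 of 31 cases by NUP210 and 14 by NPC, and 13 by both. Those shares, 41.9% and 45.2%, had wide intervals (26.4 to 59.2 and 29.2 to 62.2). The median length of these genes was 46.2 kb. Of all RefSeq genes of 20 to 50 kb, 25.7% and 23.5% were met, and of those of 50 to 100 kb, 43.8% and 41.9%. A share weighted to the lengths of the pore genes was not computed. Nup210 was met by neither list. Ranbp2, which encodes a nucleoporin of the cytoplasmic filaments, had the highest NUP210 enrichment of them, 1.41 (1.30 to 1.52), with 1.12 (1.04 to 1.20) for NPC. Nup98 had 1.35 (1.23 to 1.47) for NUP210 and 0.961 (0.859 to 1.08) for NPC, and Nup205, a scaffold subunit, had 1.17 (1.05 to 1.29) and 1.27 (1.102 to 1.45). Nup43 was met by NPC alone.

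Of 10 genes for the LINC complex and the lamina, which tie the nucleus to the cytoskeleton and line its envelope, Syne1 was met by both lists and Syne2 by NPC alone. Syne1 held 10 NUP210 peaks at 1.23 (1.17 to 1.30) and 7 NPC peaks at 1.17 (1.102 to 1.24). Of 8 migration and inflammation genes that the study followed, Cxcl3, Postn and Ptk2 were met by both, Cxcl1 and Il1a by NPC alone and Ccl2, Itga7 and Itgb2 by neither. Ptk2, the focal adhesion kinase gene, was covered to 96.7% and 94.0%, but with 7021 NUP210 against 7384 IgG reads its enrichment was 0.940 (0.910 to 0.972), and that of NPC was 0.966 (0.938 to 0.994). Cxcl3, a chemokine gene, had 1.14 (1.01 to 1.29) for NUP210 and 0.864 (0.790 to 0.945) for NPC. The NUP210 peak covered only 4.53% of Cxcl3 and the NPC peak 100%, so the NUP210 value is mostly of bases outside the gene. Being met by a listed peak thus did not mean more reads than IgG.

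The histone marks of the same control cells were set beside these categories. H3K27me3, the mark of Polycomb repression, was found on 36.7% of the 4732 RefSeq genes met by both (35.3 to 38.1), 36.7% of 1316 met by NUP210 alone (34.1 to 39.3), 30.5% of 786 met by NPC alone (27.4 to 33.8) and 13.2% of 17432 met by neither (12.7 to 13.7). Gene length differs between the categories, and within 20 to 100 kb the shares were 26.0%, 32.7%, 30.0% and 16.3%. Under 5 kb they were 50.2%, 37.7%, 37.5% and 10.96%. Of the 661 genes under 5 kb met by both, 173 lay outside the Olfr and Vmn families. The marks were not read without these families.

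H3K4me3, the mark of active promoters, was found within 4 kb of the start of 55.2% of genes met by both, 47.2% by NUP210 alone, 55.9% by NPC alone and 48.3% by neither. Its order differed between length classes. Under 5 kb it marked 9.83% of genes met by both and 33.8% of genes met by neither, and at 20 to 100 kb 71.1% and 56.9%. Most genes under 5 kb met by both were Olfr and Vmn genes, so that class differs in more than length. H3K27me3 was read against another rabbit IgG library, so its lists and those of the pore antibodies do not share control reads.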

How the data were processed

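ChIP-seq of control 4T1 cells was read from the deposited peak lists of NUP210 and NPC, with those of H3K27me3 and H3K4me3 beside them. Per the study's methods, the authors called peaks with SICER at default parameters, with windows of 1000 bp for broad and 200 bp for narrow signals. Each deposited peak comes with unnormalized read counts for ChIP and IgG, a p-value with its FDR, a fold over IgG (a ratio scaled by library size) and the gene it lies on with the bases shared. The aligner and duplicate handling of these lists are not given in the sources used here. The submitters' processing notes name Trimmomatic, STAR, Picard and Bowtie2, and the builds mm9, mm10 and NCBIM37, with no role. The build was taken as GRCm38 because 87.4% of matched NUP210 genes and 87.3% of matched NPC genes begin or finish no more than 50 bp from its RefSeq models. Peaks away from genes are not in these lists, and knockout and RNA-seq samples were not used here.

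Entries were collapsed to distinct peaks, positions are 1-based, and the library ratio was recovered from counts and fold. Reads of a gene were summed over its peaks. IgG reads were never 0, and 4 NUP210 peaks had under 10. Total depth is unknown beyond the reads in peaks, 7194586 for NUP210 and 5866175 for NPC. Genes were matched to RefSeq by transcript accession, or else by symbol on the same chromosome (96.3% of NUP210 and 96.7% of NPC genes). Intervals are 95%: Wilson for shares, exact conditional binomial for enrichments, Wald for log2 ratios and order statistics for medians. Where 0 members were counted, the share said to be allowed is 3 counts over the number of members. Reads carry no molecular identifiers, so intervals cover counting error only. Genes named are the 6 of highest enrichment per list (at least 20 IgG reads and a peak with an FDR of at most 0.05), the 5 highest and 5 lowest ratios, the 3 longest of each category, and the pore, LINC, lamina and study genes. The highest peaks with at least 20 IgG reads, the split of Olfr genes by chromosome, the share of genes outside Olfr and Vmn and the genes with strong peaks of both lists were chosen after the values were seen. Members, lists and rules were chosen with earlier results of these data known. One item is not reported here. Promoters on chromosome 18 were not considered for display. The steps were tested on simulated data. Software was matplotlib 3.10.9, scipy 1.17.1, pandas 2.3.3 and numpy 2.4.6 under Python 3.11.15.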

Additional observations from a re-analysis of the deposited data

How the results depend on the processing

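Of 42 alternatives to 11 results, 14 stayed within 1.5 times the main count or within the interval of the main value, 28 moved and 0 reversed. Counts, shares, lengths and enrichments have no sign that could reverse. Orders between categories did change. With an enrichment of at least 2, genes met by both went from the largest category to the smallest. With that limit, or with peaks that meet 1 gene, genes met by NUP210 alone went from slightly shorter than those of NPC alone to longer. With peaks of both lists limited to an FDR of 0.05 or less, genes met by both were 2635 and by NUP210 alone 2391, the overlap was 35.9% of NUP210 and 54.8% of NPC peaks, median enrichments were 1.28 and 1.23, median gene lengths were 77.0 kb for both, 23.6 kb for NUP210 alone and 28.7 kb for NPC alone, and the median log2 ratio was 0.059. With an enrichment of at least 2 in both lists, genes met were 18 by both, 380 by NUP210 alone and 56 by NPC alone, their median lengths were 523 kb, 148 kb and 115 kb, and 0 peaks of either list overlapped, a share of 0%. With peaks that meet 1 gene, median lengths were 66.8 kb for both, 26.9 kb for NUP210 alone and 25.5 kb for NPC alone. When 50% of a peak had to be covered, the overlap was 60.2% of NUP210 and 72.2% of NPC peaks, and on autosomes it was 70.9% of NUP210 peaks. Without the library ratio, median enrichments were 1.20 for NUP210 and 0.669 for NPC and the median log2 ratio was 0.83, and with the highest peak of each gene the ratio was 0.12. The stricter alternatives keep fewer peaks by construction, and the other causes were not tested. No paired analysis was possible because each antibody has 1 library. The spread between cultures is not measured, and depth limits peaks with few IgG reads most, as the wide intervals of the strongest peaks show.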

Other observations

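MicroRNA genes were met as well, 137 by NUP210, 110 by NPC and 94 by both. The RefSeq background holds protein-coding and long noncoding genes only. No share is therefore given, and the counts do not say whether these are many or few. On chromosome 1, an NPC peak of 115 kb (88197001 to 88312000) took in 14 genes, among them the Ugt1a genes, which encode enzymes that conjugate bilirubin and drugs. It held 4930 ChIP and 7854 IgG reads, an enrichment of 1.04 (0.999 to 1.07). In the Pcdha protocadherin cluster on chromosome 18, where the genes share their last exons, a NUP210 peak of 3 kb (37083001 to 37086000) had 114 ChIP and 42 IgG reads, an enrichment of 2.68 (1.87 to 3.92). A peak from 37093001 to 37102000 in the same cluster had the same ends in both lists, with an enrichment of 1.30 (1.08 to 1.57) for NUP210 and 1.13 (0.941 to 1.37) for NPC. These peaks were chosen for the number of genes they meet.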
